A study of Mus musculus with 10 samples.

Results

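The subject here is the splicing factor and heterogeneous nuclear ribonucleoprotein (hnRNP) genes of lung group 2 innate lymphoid cells (ILC2), tissue lymphocytes without antigen receptors that make type 2 cytokines. Members were chosen by gene name alone: SR proteins (Srsf followed by a digit), hnRNPs (Hnrnp), subunits of SF3A and SF3B (Sf3a or Sf3b followed by a digit), U2AF (U2af) and PRPF factors (Prpf followed by a digit). The names matched 58 entries, of which 2 were pseudogenes and 2, Srsf2 and U2af1l4, were at 0 in every library. This left 54 members among 19014 genes with any count: 10 SR protein genes, 20 hnRNP genes, 9 SF3A and SF3B genes, 2 U2AF genes and 13 PRPF genes. There were 5 c-Maf KO libraries, from C57BL/6 mice labelled as lacking the transcription factor c-Maf, and 5 WT libraries from C57BL/6 mice, all from cohoused littermates given papain, a protease that inflames the lung. Total RNA was sequenced from sorted cells that carried CD90.2 and no lineage marker, whether or not they also carried ST2 or KLRG1. The sources used here do not state which cells lost c-Maf or which part of the gene was removed. Library numbers follow the order of deposit and pair nothing. The labels do not state that each library is a different mouse, and the p-values cover only the variation among these libraries.

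Introns are removed from pre-mRNA by the spliceosome, which assembles on each intron from small nuclear ribonucleoproteins (snRNPs). U2AF reads the 3′ splice site, SF3A and SF3B build the U2 snRNP that holds the branch point, and PRPF8 with other PRPF proteins forms the U5 and U4/U6 particles of the catalytic core. SR proteins mostly promote the use of the exons they bind, and hnRNPs coat nascent RNA and often oppose them. In lymphocytes these factors are known for setting the isoforms of the surface phosphatase CD45, an exon choice in which hnRNPLL and hnRNPL take part. The counts are per gene, so they give the RNA level of each factor and not the splicing of any transcript.

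The KO libraries held 3620002 to 9867580 counts and the WT libraries 21400938 to 24489987. Maf itself had 0, 0, 0, 108 and 0 counts in KO libraries 1 to 5, against 3252, 3832, 1412, 1696 and 2727 in WT libraries 1 to 5 (edgeR log2 fold change −4.34, adjusted p = 0.141, and 0.00525 without KO library 4). KO library 4 therefore goes against its label in part, and results that rest on it are also given without it. KO library 1 stood apart with 902041 globin counts, against 387 to 6475 in the other KO libraries and 34 to 215 in WT libraries. Levels below are counts per 1000000 (CPM) on library sizes scaled by TMM, the trimmed mean of M values. The TMM factors were 0.18 to 0.928 in KO libraries and 1.46 to 1.91 in WT libraries. KO levels therefore stand higher against WT levels on this scale than by library size alone. A single count was worth 0.137 to 1.18 CPM in KO libraries and 0.0221 to 0.03 CPM in WT libraries. The 13 ILC2 markers (Il1rl1, Gata3, Rora and others) summed to 4206 to 23250 CPM in KO libraries and 4489 to 6977 CPM in WT libraries. All 13 had counts in both groups, but Il5 had 0 in KO library 1. Mean levels in KO were lower for Il13 (193 CPM, against 869 CPM in WT), Il5 (32.9, against 92.7), Klrg1 (156, against 193) and Ptprc (595, against 603). They were higher for the other markers, among them Rora (4283, against 1038). In edgeR 0 of the 13 passed as lower and 0 as higher. Markers of other cells summed to 0.876 to 43.5 CPM in KO libraries and 12.2 to 68.9 CPM in WT libraries for T cells (5 genes, Cd8a at 0), and to 0 to 262 CPM in KO libraries and 0 to 4.32 CPM in WT libraries for B cells (4 genes, Ms4a1 at 0). For macrophages and dendritic cells (7 genes) the sums were 0 to 35.3 CPM in KO libraries and 2.37 to 274 CPM in WT libraries, and for stromal and endothelial cells (5 genes, Cdh5 at 0) 0 to 3154 CPM in KO libraries, where Col1a2 gave 2615 counts in KO library 1, and 24.1 to 91 CPM in WT libraries. NK cell, granulocyte and epithelial markers stayed at or below 6.76 CPM in every library, with Ncr1, Klrb1c, Eomes, Epx, Prg2, Ly6g and Sftpc at 0. The erythroid list (6 genes, Alas2 at 0) ran from 169.5 to 1061000 CPM in KO libraries and from 0.782 to 4.89 CPM in WT libraries. The part of these other cells in the results below was not tested.

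WT ILC2 transcribed nearly the whole set. With more than 3 counts taken as present, 52 to 53 of the 54 members were present in each WT library (97 ± 1.01%, SD, n = 5), and 50 were present in all 5. The members together held 0.425 ± 0.029% of WT counts, of which hnRNPs made up the largest part with 0.233 ± 0.0256% of all counts. Levels of different genes were compared as CPM per kilobase of annotated exon. Hnrnpc, whose protein packages nascent RNA and binds uridine tracts, led with 34.4 ± 13.6 CPM per kb in WT libraries (SD, n = 5). Next came Prpf8, the scaffold of the catalytic core, at 30.9 ± 5.81 CPM per kb, Srsf5 at 22.6 ± 11.8 CPM per kb and Hnrnpa1, which binds exonic silencers, at 22.1 ± 4.54 CPM per kb. Neighbours in this order differed by less than the larger of their SDs, from Hnrnpc down to Hnrnpk at 21 ± 6.85, Hnrnpf at 20.2 ± 2.67 and Hnrnpa2b1 at 19.8 ± 6.78 CPM per kb. At the other end stood Prpf31 at 0.196 ± 0.381 and Srsf12 at 0.209 ± 0.178 CPM per kb in WT libraries. Whether reads in introns were counted is not given in the sources used here. Per kilobase of gene span Srsf5 came first and Hnrnpc, whose gene is long, was ranked 11, while the 2 orders had a Spearman rho of 0.853 over the 54 members. The steadiest member over WT libraries was Hnrnpdl, at 26.9 ± 1.87 CPM. Over the tested members the median coefficient of variation between WT libraries was 0.364, against 0.552 over all 7490 tested genes.

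Some levels are uncertain because genes overlap. Srsf2 (GRCm38 chromosome 11, 116849901 to 116853094), which encodes a prominent SR protein, had 0 counts in all 10 libraries. All of its exon sequence lies within the spans of Mettl23 and Mfsd11 on the opposite strand, which had 1336 and 196 counts in total. U2af1l4 (chromosome 7, 30563301 to 30565365), a paralog of U2af1, was also at 0, with all of its exon sequence inside Psenen and another annotated gene, and Psenen had 27400 counts. Exons of other genes overlapped 25.3% of the exon sequence of Srsf2 and 66.1% of that of U2af1l4. Srsf2 and U2af1l4 were treated as not measured, and the cause of their 0 counts was not tested. The exons of Prpf31 lay 82.2% within the span of another gene, introns included, those of Hnrnpab 71.3%, Hnrnph3 49.5%, Srsf4 43% and Hnrnpul2 42.9%. Overlap with exons of other genes was 18.1, 29.1, 3.65, 43 and 5.07% in the same order. Their levels are uncertain, and how far depends on whether introns were counted. The 2 pseudogene names that were dropped are copies like Hnrnpa1, and how reads shared with such copies were counted is not given in the sources used here.

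In KO libraries the set was patchy. Members with more than 3 counts numbered 8, 27, 35, 33 and 20 in KO libraries 1 to 5, against 53, 52, 52, 52 and 53 in WT libraries 1 to 5. As a share this was 14.8 to 64.8% of the members in KO libraries and 96.3 to 98.1% in WT libraries, beside 8.3 to 26.5% in KO libraries and 47.3 to 59.4% in WT libraries over all 19014 genes with any count. Thinning each library to the smallest total gave 8 to 33 members in KO libraries and 50 to 53 in WT libraries. In these bulk samples, fewer cells and less RNA per cell cannot be told apart. Of the 54 members, 5 were present in every KO library (Prpf8, Hnrnpc, Hnrnpa2b1, Srsf3 and Srsf5), 9 in 4, 21 in 2 or 3, and 19 in at most 1. Presence followed the WT level, with a Spearman rho of 0.769 over the 54 members between the mean WT CPM by library size and the number of KO libraries. The same number had a rho of 0.408 with exon length and 0.0623 with gene span. Members share libraries, so these values are descriptions.

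**Figure D1:**
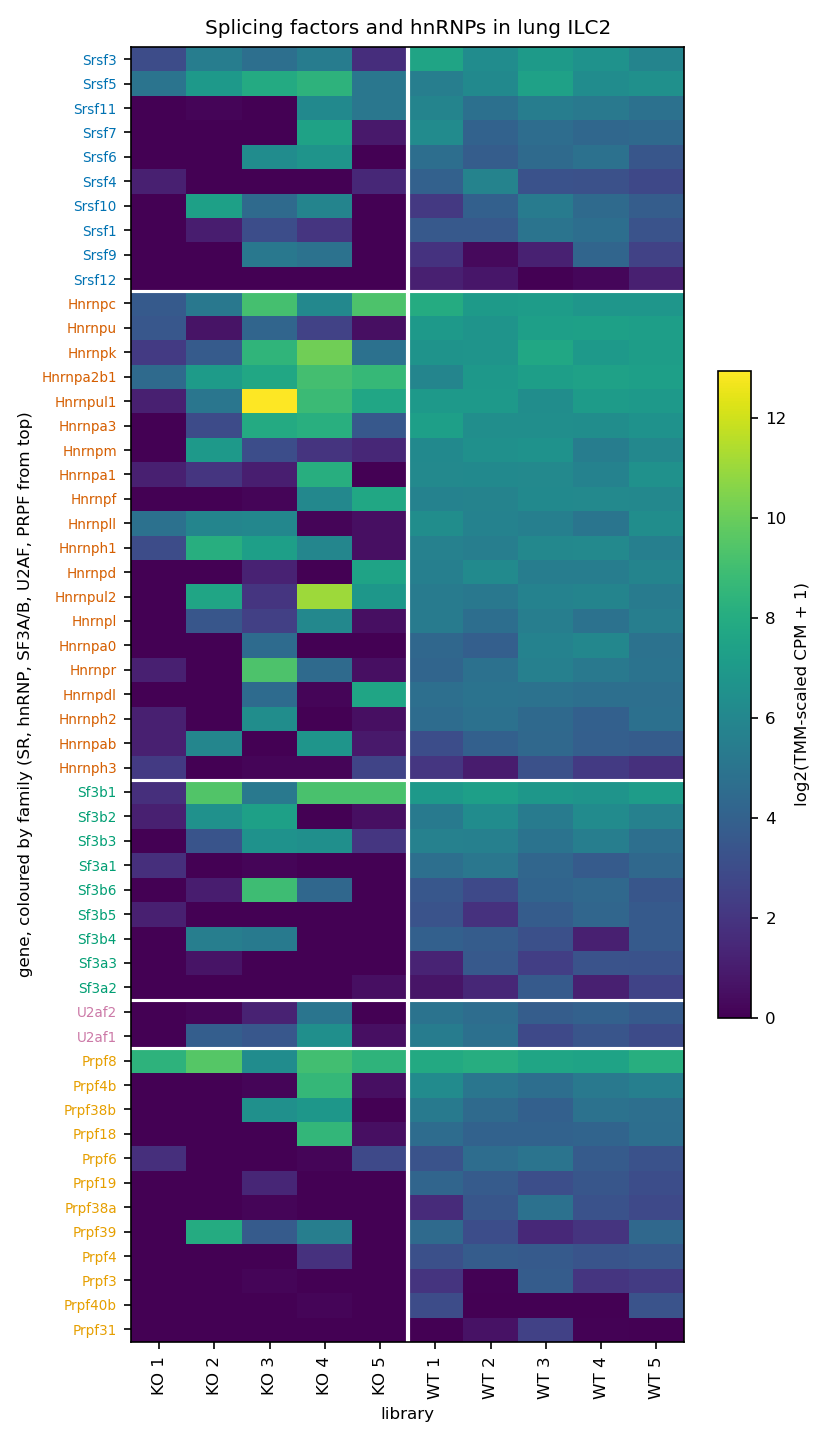
Level of the members, as log2(TMM-scaled CPM + 1), in the 5 KO libraries (left of the white line) and the 5 WT libraries (right), grouped by family and ordered by mean WT level within a family. The WT columns are filled almost throughout, while each KO column has many members at 0, most of all KO 1, where 8 of all 54 members had more than 3 counts.

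**Figure D2:**
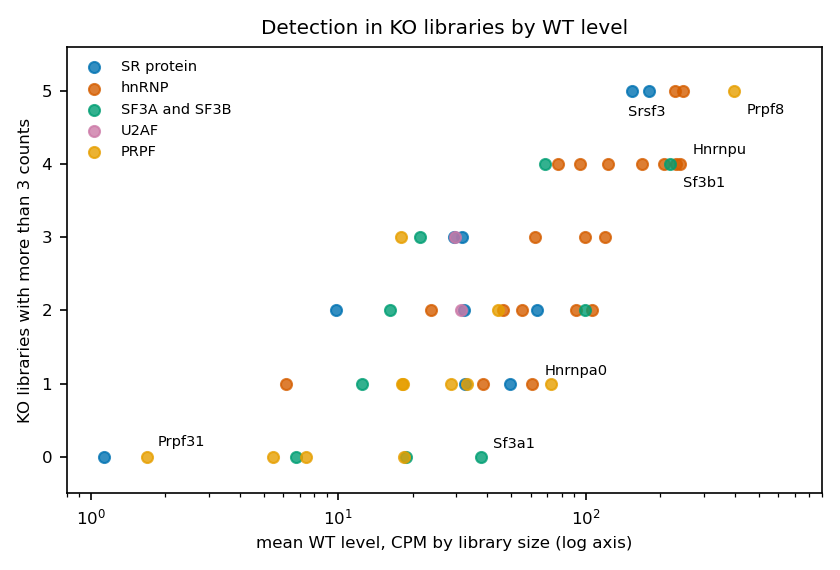
Number of KO libraries, of 5, with more than 3 counts (vertical axis) against the mean WT level in CPM by library size (horizontal log axis), with a point for each member drawn, coloured by family. Points climb to the right, and Prpf8, with the highest WT level, is present in all 5 KO libraries, while Sf3a1 is present in none.

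The genes that were present differed from one KO library to the next. Prpf8 held 70.4% of all member counts in KO library 1 (281 of 399) and 22.5% in KO library 2, where Sf3b1 followed with 4615 counts. In KO library 3 a single gene, Hnrnpul1, held 67% of them with 57519 counts. In KO library 4 Hnrnpul2 led with 14629 counts (25.3%) and in KO library 5 Hnrnpc with 1452 (20.9%). In WT libraries the leading member, which was Prpf8, Hnrnpc or Hnrnpk, held 7.73 to 11.3% of member counts. Of the 52 members with any KO count, 48 had over 50% of their KO counts in 1 library. Among the tested members this was 92%, near the 88.1% of all tested genes with KO counts. The share of all counts held by the members was 0.00839, 0.239, 0.992, 0.585 and 0.192% in KO libraries 1 to 5, against 0.384, 0.437, 0.408, 0.435 and 0.459% in WT libraries 1 to 5. Over the 54 members, pairs of KO libraries correlated at a Spearman rho of 0.206 to 0.504, KO with WT libraries at 0.41 to 0.746 and pairs of WT libraries at 0.784 to 0.921.

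**Figure D3:**
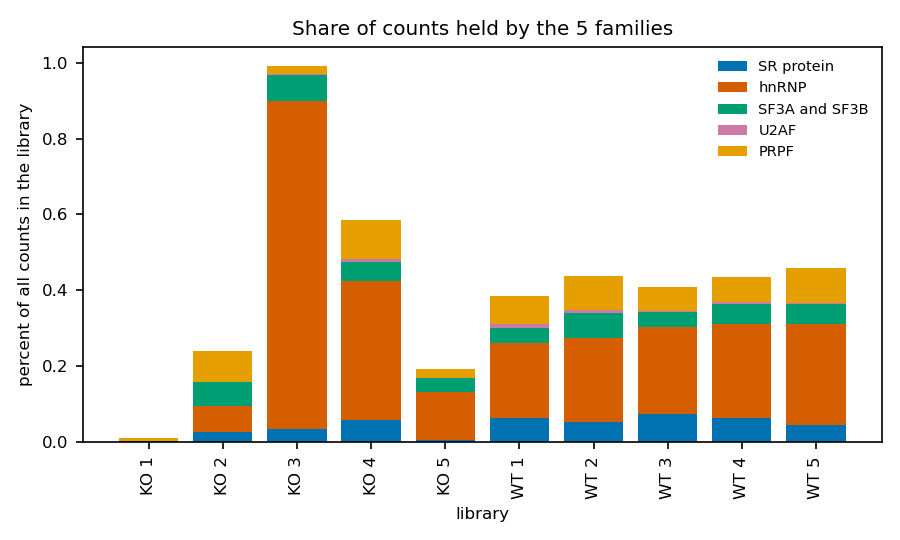
Percent of all counts in each library that fell on the members, stacked by family, for KO libraries (left) and WT libraries (right). The WT bars lie between 0.384 and 0.459%, while the KO bars run from 0.00839% in KO 1 to 0.992% in KO 3, where hnRNPs make up most of the bar.

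The comparison of KO with WT asks which of these factors differ in level between libraries labelled c-Maf KO and WT. Every KO library had fewer counts than every WT library, and fewer genes with any count (4052 to 7660, against 10577 to 12744). Loss of c-Maf and poorer KO libraries therefore cannot be told apart here. A gene said below to have fallen is one called lower in KO. Of the 54 members, 50 passed the filter on low counts and entered the quasi-likelihood test of edgeR, adjusted over all 7490 tested genes. Lower in KO were 8 members: Sf3a1, Sf3a2, Sf3a3, Sf3b5, Prpf38a, Prpf19, Prpf4 and Srsf4. None passed as higher (0 of 50). The 8 are 16% of those tested, below the 27.1% of all tested genes that were called lower, and 1.5% of all tested genes were called higher. At an unadjusted p under 0.05, edgeR had 1 member higher, Hnrnpul1, and 10 lower, the 8 with Hnrnpu and Prpf6. DESeq2 called 1 member higher, Hnrnpul2, beside 13.5% of all genes it tested, and voom called 0, beside 0.948% of all genes it tested. Without KO library 4 the lower calls numbered 14 of 51 (beside 37.8% of all tested genes) and without KO library 3 13 of 51 (beside 37.9%). They numbered 5 of 49 without WT library 3, 4 or 5 (beside 24.5, 23.8 and 24.3%). Higher calls numbered 2 without KO library 1 (beside 3.72%) and 1 without KO library 2 (beside 3.56%). Without KO libraries 1 and 5 together 11 of 52 were lower (beside 33.4% of all tested genes) and 2 higher (beside 3.53%), and 6 of the 8 were kept. The median log2 fold change of the tested members was −0.08, against −0.47 for all tested genes. That order turned with voom (−3.76 for members, against −3.58 for all tested genes). It also turned among genes with a mean of at least 20 CPM (0.54, against 1.03). DESeq2 gave a median of 0.24 for the 54 members, against 1.24 over all 19014 genes with any count. It gave an adjusted p to only 47 members and 11211 genes, so these medians are not those of its tested genes. Most members kept by the filter were kept through their WT counts, so a member missing from KO libraries had to come out lower or untested.

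**Figure D4:**
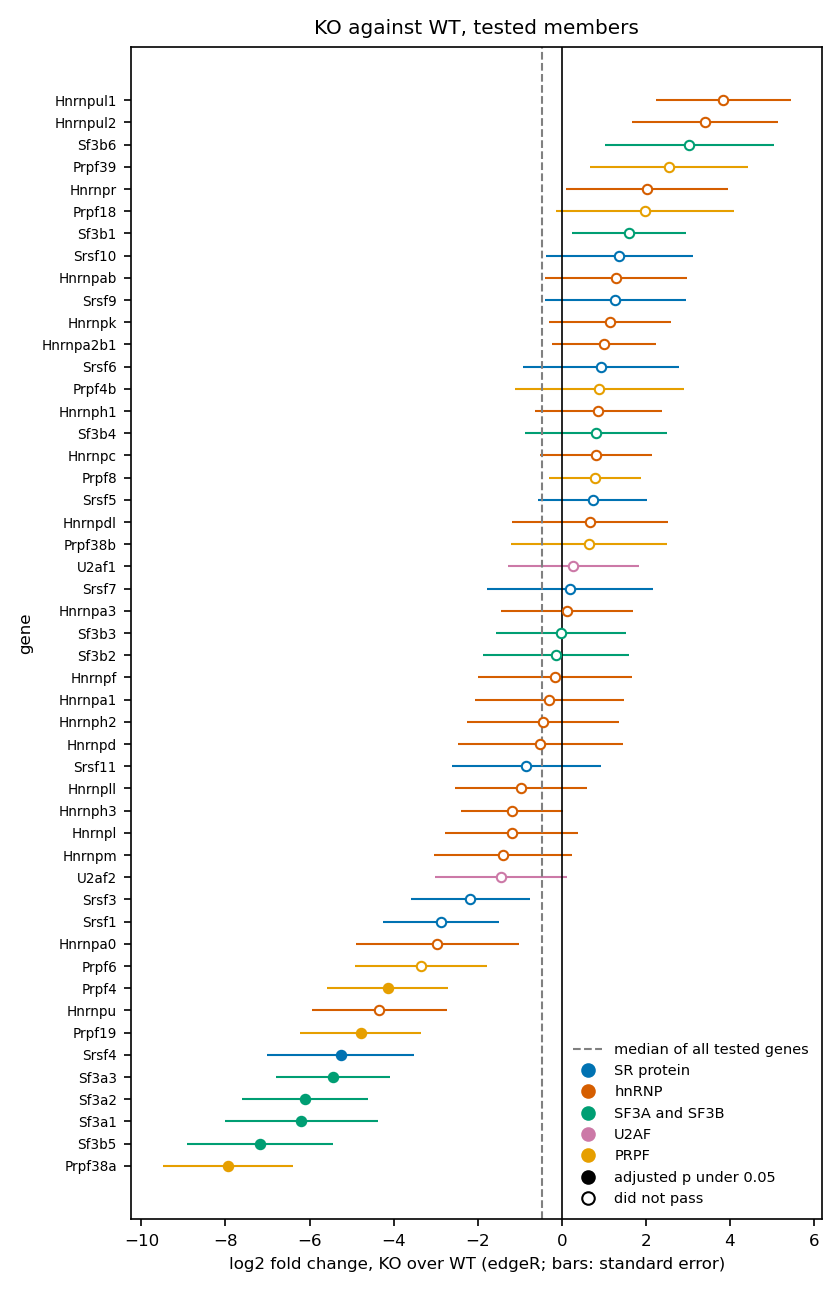
Log2 fold change of KO over WT for the tested members (points, with bars of 1 standard error), coloured by family and filled where the adjusted p was under 0.05. The 8 filled points all lie left of −4, and the dashed line marks the median of all tested genes at −0.47.

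Within the U2 snRNP, all 3 subunits of SF3A fell. SF3A is the part of the mature particle that joins it with SF3B to the pre-mRNA near the branch point. Sf3a1 had 2, 0, 1, 0 and 0 counts in KO libraries 1 to 5, against 893, 1539, 599, 553 and 873 in WT libraries 1 to 5. That is a WT to KO ratio of CPM over the groups of 177 (95% counting interval 60.6 to 860), with an edgeR log2 fold change of −6.19 (SE 1.83, adjusted p = 0.0144). Sf3a2 had 1 count over the KO group and 763 over the WT group, a ratio of 91.05 (95% counting interval 16.3 to 3601, edgeR adjusted p = 0.00418). Sf3a3 had 0, 4, 0, 0 and 0 counts in KO libraries and 50, 505, 140, 408 and 374 in WT libraries (edgeR log2 fold change −5.45 with SE 1.35 and adjusted p = 0.00444). For all 3 genes, every KO library lay below every WT library. Their WT levels were low, at 22 ± 8.41 CPM for Sf3a1, 4.05 ± 4.54 CPM for Sf3a2 and 6.89 ± 3.99 CPM for Sf3a3. By library size alone they stood at 37.6, 6.78 and 12.4 CPM. Missing from at least 4 KO libraries were 90.3% of all genes with a WT level of 0 to 10 CPM on that scale, 80.1% of those at 10 to 20 CPM and 61.8% of those at 20 to 50 CPM. Sf3a1 lost its call with RLE size factors (adjusted p = 0.113) and Sf3a2 with voom (adjusted p = 0.0578). Without any one of WT libraries 2 to 5, Sf3a2 did not reach the filter and was not tested.

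The 250 bases before the RefSeq start of the 3 SF3A genes are given because all 3 passed as lower, with those of Prpf8, which was present in all libraries. At the WT levels of the SF3A genes most genes were missing from at least 4 KO libraries. Shared regulation of the SF3A genes is therefore not shown by their calls and was not tested. All are from GRCm38.p6 on the plus strand: Sf3a1 at chr11:4160104-4160353, Sf3a2 at chr10:80798485-80798734, Sf3a3 at chr4:124714611-124714860 and Prpf8 at chr11:75486527-75486776. Capitals mark CCGGAAG, the core bound by ETS family factors, on either strand (CTTCCGG on the other).
Sf3a1: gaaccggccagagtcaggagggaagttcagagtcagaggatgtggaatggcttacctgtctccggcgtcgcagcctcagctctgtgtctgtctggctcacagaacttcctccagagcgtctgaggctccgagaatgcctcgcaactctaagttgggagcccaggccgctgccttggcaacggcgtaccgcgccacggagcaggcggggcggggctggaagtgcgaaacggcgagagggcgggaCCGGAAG
Sf3a2: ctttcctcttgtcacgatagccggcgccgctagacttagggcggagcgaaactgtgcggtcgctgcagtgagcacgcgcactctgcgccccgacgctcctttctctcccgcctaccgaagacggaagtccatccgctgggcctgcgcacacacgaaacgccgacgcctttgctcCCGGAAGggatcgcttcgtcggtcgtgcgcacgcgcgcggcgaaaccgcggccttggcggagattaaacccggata
Sf3a3: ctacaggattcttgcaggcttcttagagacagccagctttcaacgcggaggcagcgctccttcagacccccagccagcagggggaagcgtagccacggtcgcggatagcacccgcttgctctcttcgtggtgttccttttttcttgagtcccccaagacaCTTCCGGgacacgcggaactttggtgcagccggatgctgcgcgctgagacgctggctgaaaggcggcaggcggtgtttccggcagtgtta
Prpf8: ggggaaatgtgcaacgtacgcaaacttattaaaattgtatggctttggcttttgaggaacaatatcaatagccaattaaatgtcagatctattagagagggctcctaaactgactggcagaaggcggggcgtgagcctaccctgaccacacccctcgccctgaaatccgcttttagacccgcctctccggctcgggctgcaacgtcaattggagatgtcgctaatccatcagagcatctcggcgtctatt
Each SF3A window held 1 such match and the Prpf8 window 0, but matches also lay in windows of members that did not pass, among them Srsf5, which was present in every KO library, Sf3b2 and Sf3b3. Windows of 300 bases (250 before and 50 after a start) were listed for 47 of the 54 members, 64 windows in all, and CCGGAAG was found in 32.8% of them, against 8.86% of all 32851 windows. The half-site of MAF proteins, TGCTGA, searched on both strands, was found in 12.5% of the member windows and 19.5% of all windows, and in none of the 4 windows shown. A match is a run of letters and not a bound site.

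The SF3B subunits did not move as one. Sf3b5, a small subunit, fell: it had 1 KO count and 2202 WT counts, a ratio of 263 (95% counting interval 47.1 to 10380), with an edgeR log2 fold change of −7.18 (SE 1.74, adjusted p = 0.00378). Sf3b1, the large subunit that closes on the branch point adenosine, stood at 2.35, 692, 37.2, 605 and 600 CPM in KO libraries 1 to 5, against 124, 155, 114, 104 and 139 CPM in WT libraries. KO libraries 2, 4 and 5 were above every WT library and KO libraries 1 and 3 below every one, and the edgeR adjusted p was 0.44 (log2 fold change 1.61, SE 1.35). Sf3b2 stood at 51.2 ± 73.6 CPM in KO and 56.6 ± 18.7 CPM in WT, and Sf3b3 at 39.3 ± 48.4 CPM in KO and 40 ± 11.4 CPM in WT (SD, n = 5 each). Sf3b6, the subunit next to the branch point, stood at 3589 counts in KO library 3 and 133 in KO library 4, against 278 to 879 in WT libraries. Sf3b4 was at 46 and 38.2 CPM in KO libraries 2 and 3 and at 0 in the other 3, against 1.22 to 14.7 CPM in WT libraries. In all, 4 of the 9 SF3A and SF3B genes passed as lower (44.4%, against 27.1% of all tested genes), 0 as higher and 5 did not pass. The 4 had WT levels under 50 CPM by library size, where 32.1 to 45.4% of all tested genes were lower.

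**Figure D5:**
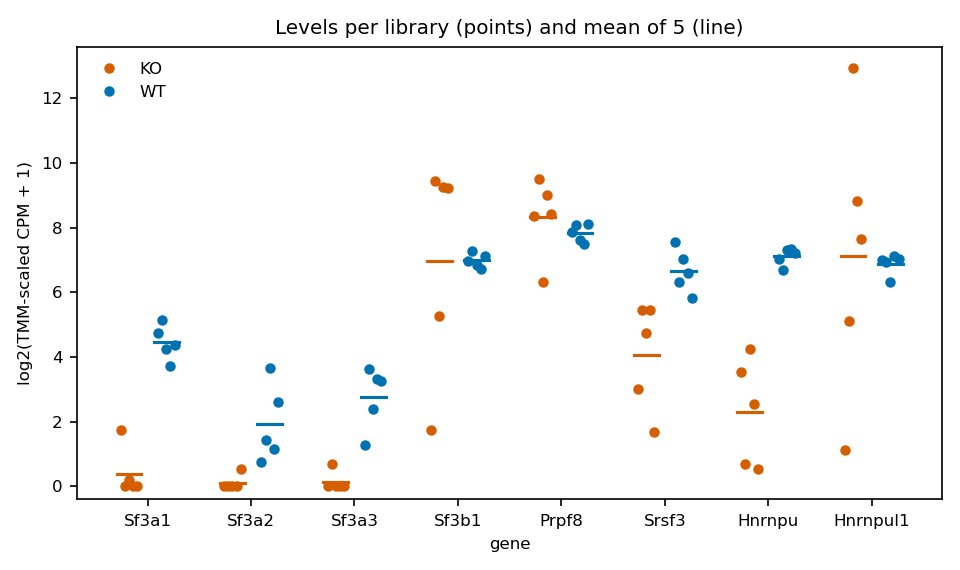
Log2(TMM-scaled CPM + 1) of 8 members in each KO library (orange, left) and WT library (blue, right), with a line at the mean of 5. For the 3 SF3A genes, Srsf3 and Hnrnpu every KO point is below every WT point, while Sf3b1, Prpf8 and Hnrnpul1 have KO points on both sides of the WT points.

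U2AF did not pass. U2af2, the subunit that binds the polypyrimidine tract, had 0, 1, 10, 225 and 0 counts in KO libraries 1 to 5 and 1013, 1072, 435, 690 and 510 in WT libraries (edgeR log2 fold change −1.45 with SE 1.58 and adjusted p = 0.562). Of the KO libraries only library 4 came up to the WT levels, at 32.1 CPM against 11.6 to 29 CPM in WT libraries. Without it U2af2 passed as lower (log2 fold change −5.25, edgeR adjusted p = 0.0102). U2af1, which reads the AG at the intron end, stood at 0, 13.5, 10.4, 85 and 0.438 CPM in KO libraries and 41.8, 26.1, 6.16, 9.76 and 6.67 CPM in WT libraries. Its groups overlapped (edgeR log2 fold change 0.28 with SE 1.57 and adjusted p = 0.924), and without KO library 4 the value was −1.55 and did not pass either.

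Of the PRPF genes, 3 of 10 tested passed as lower (30%, near the 27.1% of all tested genes), 0 as higher and 7 did not pass. Prpf38a, a factor that activates the assembled spliceosome, had 1 KO count and 2097 WT counts, a ratio of 250 (95% counting interval 44.9 to 9888, edgeR adjusted p = 0.00163). Prpf19, the ubiquitin ligase at the centre of the PRP19 complex, had 12 counts in KO library 3 and 0 in the other 4, against 613, 536, 257, 451 and 318 in WT libraries 1 to 5 (edgeR log2 fold change −4.78 with SE 1.44 and adjusted p = 0.0167). Prpf19 lost its call without KO libraries 1 and 5 together (adjusted p = 0.0563). Prpf4, a U4/U6 protein, had 18 counts in KO library 4 and 0 in the other 4, against 279 to 570 in WT libraries (edgeR log2 fold change −4.14 with SE 1.44 and adjusted p = 0.0381). The Prpf4 call was lost without KO library 1 or 5, or without any one of WT libraries 2 to 5 (adjusted p up to 0.0638). Of its partners in the U4/U6 particle, Prpf3 had 1 KO count and 838 WT counts, and Prpf31 0 KO counts and 184 WT counts. By library size the WT levels of Prpf3 and Prpf31 were 7.445 and 1.69 CPM. Among all genes at 0 to 10 CPM on that scale, 90.3% were missing from at least 4 KO libraries. Prpf3 and Prpf31 were too weak for the filter, as were Prpf40b and Srsf12, and Prpf31 was at 0 in 2 WT libraries as well.

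Prpf8 was the only PRPF gene present in every KO library. It stood at 330.6, 732, 78.1, 515 and 340 CPM in KO libraries 1 to 5, against 233, 270.5, 194, 179.5 and 275 CPM in WT libraries 1 to 5. KO library 3 was below and the other 4 above every WT library, and the difference did not pass (edgeR log2 fold change 0.79 with SE 1.10 and adjusted p = 0.659). With library size alone the log2 fold change was −0.64, and the mean level was 248 CPM in KO against 397 CPM in WT. The places of the KO libraries above or below WT are therefore those of the TMM scale. Prpf6, the bridge of the tri-snRNP, lay under the whole WT range in 5 of 5 KO libraries, at 0 to 6.13 CPM against 8.62 to 30.3 CPM in WT libraries, and did not pass (edgeR log2 fold change −3.35 with SE 1.57 and adjusted p = 0.135). It passed without KO library 5 (adjusted p = 0.0395). Prpf4b, a kinase, and Prpf18, a second-step factor, were decided by KO library 4, where they had 2786 and 2658 counts, against at most 1 in any other KO library. Prpf4b had a log2 fold change of 0.90 (edgeR adjusted p = 0.795), and without KO library 4 −7.98 (adjusted p = 0.0061). Prpf18 had a log2 fold change of 1.98 (edgeR adjusted p = 0.556), and without KO library 4 it passed as lower. Prpf39, a U1-associated factor, stood at 1684 counts in KO library 2 and at most 316 in the other KO libraries, and Prpf38b had 644 and 799 in KO libraries 3 and 4 and 0 elsewhere in KO.

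Of the SR proteins, 1 of 9 tested genes passed as lower (11.1%, against 27.1% of all tested genes), 0 as higher and 8 did not pass. Srsf4 had 1, 0, 0, 0 and 4 counts in KO libraries 1 to 5 and 523, 2457, 282, 376 and 264 in WT libraries (edgeR log2 fold change −5.26 with SE 1.76 and adjusted p = 0.0303). Its call was lost with RLE size factors (adjusted p = 0.12) and without any one of WT libraries 2 to 5 (adjusted p up to 0.0518), and 43% of its exon sequence overlaps another gene. Srsf3, an SR protein that also serves mRNA export, was present in all KO libraries and yet below every WT library in 5 of 5, at 7.06, 43, 25.9, 42.6 and 2.19 CPM in KO against 186, 78.6, 130, 96 and 55.6 CPM in WT. The difference did not pass (edgeR log2 fold change −2.17 with SE 1.42 and adjusted p = 0.304). Srsf1, the founding member of the family, showed the same order, at 0 to 7.26 CPM in KO and 9.01 to 30.4 CPM in WT (edgeR log2 fold change −2.88 with SE 1.37 and adjusted p = 0.143), and passed without KO library 3 (adjusted p = 0.0297).

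Srsf5 stood at 30.6, 124, 236, 324 and 34.2 CPM in KO libraries and 45.6, 69, 169, 78.2 and 88.7 CPM in WT libraries, with overlapping groups (edgeR log2 fold change 0.73 with SE 1.30 and adjusted p = 0.736). Srsf7, a close relative of Srsf3 that also serves mRNA export, was found almost only in KO library 4 among the KO libraries, with 1229 counts there and 0, 0, 0 and 2 in the others, against 712 to 2626 in WT libraries. Without KO library 4 its log2 fold change moved to −6.94, against 0.20 with it (edgeR adjusted p = 0.0118 and 0.96). Srsf6 had 573 and 731 counts in KO libraries 3 and 4 and 0 in the other 3, and Srsf9 260 and 201 in the same 2 and 0 in the others. Srsf10, a splicing repressor when dephosphorylated, had 1074, 157 and 401 counts in KO libraries 2, 3 and 4 and 0 in KO libraries 1 and 5, against 122 to 1355 in WT libraries. Srsf11 had 497 and 79 counts in KO libraries 4 and 5 and at most 1 in the others.

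None of the 20 hnRNP genes passed in edgeR (0 lower and 0 higher, against 27.1% lower and 1.5% higher of all tested genes). Most hnRNP genes had WT levels over 50 CPM by library size. Of all tested genes at 50 to 100, 100 to 200 and 200 to 400 CPM, 12.7, 4.17 and 1.19% were lower. At an unadjusted p under 0.05 in edgeR, Hnrnpu was lower and Hnrnpul1 higher. Closest was Hnrnpu, which encodes a nuclear matrix protein that binds RNA and chromatin, at 10.6, 0.6, 17.9, 4.85 and 0.438 CPM in KO libraries 1 to 5, against 129, 103, 156, 161 and 149 CPM in WT libraries 1 to 5. Every KO library lay below every WT library, yet the adjusted p was 0.052 (edgeR log2 fold change −4.34, SE 1.61). Hnrnpu passed in 6 of 9 alternatives that change the scaling, test, filter, depth or the set of KO libraries, among them DESeq2 (adjusted p = 0.0238) and voom (adjusted p = 0.00481), with a highest adjusted p of 0.162. With 1 library left out, Hnrnpu passed only without KO library 1 or 3, and the highest edgeR adjusted p was 0.116. Among the 337 genes whose WT level was 200 to 400 CPM by library size, 1.19% were called lower. In all, 12 of the 50 tested members had every KO library below every WT library (24%, against 28.9% of all tested genes). Those beside Hnrnpu were the 8 that passed, Prpf6, Srsf1 and Srsf3. None had every KO library above every WT library, against 0.774% of all tested genes.

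The hnRNP A/B genes, whose proteins bind exonic silencers, were uneven. Hnrnpa2b1 was present in every KO library, at 21.2, 138, 209, 535 and 411 CPM in KO against 58.3, 118, 149, 168 and 158 CPM in WT (edgeR log2 fold change 1.01 with SE 1.24 and adjusted p = 0.611). Its paralog Hnrnpa1 was at 277 CPM in KO library 4 and at 0 to 3 CPM in the other KO libraries, against 52.9 to 92.5 CPM in WT libraries. Hnrnpa1 therefore rested on 1 library: the log2 fold change was −0.30 (edgeR adjusted p = 0.929) and, without KO library 4, −5.56 (adjusted p = 0.0168). Hnrnpa3 stood at 241 and 288 CPM in KO libraries 3 and 4 and at most 10.9 CPM in the others, against 79.7 to 159 CPM in WT libraries. Hnrnpa0 was present only in KO library 3 among KO libraries (161 counts, 22.1 CPM), against 634 to 2787 counts in WT libraries.

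Of the other hnRNPs, Hnrnpc stood at 11.8, 35.4, 562, 65.4 and 636 CPM in KO libraries and 250, 131, 143, 109 and 111 CPM in WT libraries, so that KO values lay on both sides of the WT range (edgeR adjusted p = 0.711). Hnrnpk, which binds poly(C) tracts, ranged from 3.53 CPM in KO library 1 to 1121 CPM in KO library 4, against 97.7 to 206 CPM in WT libraries (edgeR log2 fold change 1.15 with SE 1.46 and adjusted p = 0.622). Without KO library 4 the log2 fold change of Hnrnpk was −0.45 (edgeR adjusted p = 0.828). Hnrnpll, the regulator of CD45 exon skipping, had 23, 391, 462, 1 and 1 counts in KO libraries 1 to 5 and 2836, 2352, 1558, 1444 and 3532 in WT libraries 1 to 5. In CPM that is 29.9 ± 30.4 in KO and 58.6 ± 21.6 in WT, with overlapping groups (edgeR log2 fold change −0.97 with SE 1.57 and adjusted p = 0.711). Hnrnpl, its relative, stood at 16.1 ± 27.8 CPM in KO and 36.9 ± 9.36 CPM in WT (edgeR adjusted p = 0.64), with KO library 4 alone above the WT range. Without KO library 4 the log2 fold change of Hnrnpl was −3.23 and did not pass either (edgeR adjusted p = 0.0879).

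Hnrnpul1 and Hnrnpul2, relatives of Hnrnpu, are named because of their values. Hnrnpul1 stood at 1.18, 33.5, 7877, 449 and 201 CPM in KO libraries 1 to 5, against 128, 123, 79.3, 137 and 128 CPM in WT libraries 1 to 5. KO libraries 3, 4 and 5 were above every WT library, and the log2 fold change was 3.85 (SE 1.60, edgeR adjusted p = 0.0875), but 0.66 without KO library 3. It passed as higher without KO library 1 or 2 (adjusted p = 0.0153 and 0.0476). Hnrnpul2 stood at 0, 192, 3.01, 2086 and 113 CPM in KO libraries and 40.1, 35.6, 52.5, 56.3 and 40.7 CPM in WT libraries (edgeR log2 fold change 3.41 with SE 1.74 and adjusted p = 0.175), and at 0.92 without KO library 4. It passed as higher without KO library 1 (adjusted p = 0.0453) and with DESeq2 (adjusted p = 0.049), and voom gave −0.75. Among the remaining hnRNPs, Hnrnpr had 4628 counts in KO library 3, against 620 to 1655 in WT libraries, Hnrnph1 1874 in KO library 2 and Hnrnpm 837 in the same library. Hnrnpd, Hnrnpdl and Hnrnpf had their highest KO level in KO library 5, at 183, 193 and 211 CPM. At least 1 KO library was above every WT library for 35 of the 50 tested members (70%), against 56.5% of all tested genes.

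The rest of the splicing machinery was read from 8 lists of 101 genes, of which 87 were tested: 20 were lower (23%), 0 higher and 67 did not pass, and the median log2 fold change was −0.18. These stand beside 27.1% lower and a median of −0.47 over all tested genes, and the same share stands beside the counts of the single lists. Among genes at WT levels of 0 to 10, 10 to 20 and 20 to 50 CPM by library size, 34.6, 45.4 and 32.1% were lower. Of the kinases that phosphorylate SR proteins, 3 of 6 fell: Clk2, Clk3 and Clk4. Clk4 had 2 KO counts and 5875 WT counts (ratio 350.5, 95% counting interval 97 to 2895, edgeR adjusted p = 0.00163), while Clk2 and Clk3 were at 0 in all KO libraries, at least 56-fold and 92.5-fold lower. These bounds are set against 3 counts over the KO group. The other 3 did not pass. Clk1, named after its values were seen, was present in all KO libraries, with 16, 324, 1429, 140 and 9 counts in KO libraries 1 to 5 and 2621 to 4339 in WT libraries (edgeR log2 fold change −0.61, adjusted p = 0.8). Of the LSm ring, which binds the end of U6 RNA, 3 of 4 tested genes fell: Lsm4 and Lsm2 were at 0 in KO, at least 65.4-fold and 111-fold lower, and Lsm6 had 2 KO counts and 3076 WT counts. Of the PRP19 complex and catalytic factors, 6 of 19 fell, first Plrg1 and Bcas2, at 0 in KO (at least 58.7-fold and 52.3-fold lower), and Isy1 (1 KO count and 2571 WT counts). Of the tri-snRNP list, 3 of 10 fell: Cd2bp2, at 0 in KO, Txnl4a, with 1 KO count, and Usp39, with 2, whose call was lost with RLE size factors (adjusted p = 0.0596).

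Of the U2 and branch site list, 2 of 8 fell: Phf5a, a subunit that sits in SF3B with SF3B1, was at 0 in KO and had 1959 WT counts (at least 77.9-fold lower, edgeR adjusted p = 0.00163), and Snrpa1 had 2 KO counts and 818 WT counts. Of the U1 and Sm core, 1 of 9 fell, Snrpe, at 0 in KO and at least 101-fold lower, and of the minor spliceosome 1 of 3, Snrnp48. Of 28 tested regulators of other families, 1 fell: Celf1, which binds GU-rich RNA, had 2, 1, 3, 1 and 2 counts in KO libraries 1 to 5, against 5144, 4482, 2390, 3042 and 4137 in WT libraries 1 to 5 (edgeR log2 fold change −7.13 with SE 1.82 and adjusted p = 0.00527). The median log2 fold change was 0.94 in that list, −2.08 in the U1 and Sm core, 0.38 in the U2 and branch site list, −2.10 in the tri-snRNP list, −2.45 in the PRP19 and catalytic list and −0.64 in the minor spliceosome. With genes at 0 in KO placed at their bound it was −4.31 for the SR kinases and −6.41 for the LSm ring. The lists do not include the members above and were not tested as sets.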

How the data were processed

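Per the labels, total RNA of sorted lung ILC2 was made into 5 c-Maf KO and 5 WT stranded libraries. The deposited table holds raw read counts for each gene, which the authors made with STAR 2.6.0c, SAMtools 1.8 and HTSeq 0.9.1 on GRCm38, per the submitters' processing notes. The sources used here do not give the annotation release, the strand setting or whether introns were counted. Of 54838 identifiers, 54809 matched GENCODE release M21, which gave exon lengths, spans and overlaps.

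The counts were tested in R 4.3.3 with edgeR 4.0.16 (TMM, filterByExpr, quasi-likelihood test, Benjamini-Hochberg adjustment over all 7490 genes kept, threshold 0.05), with no covariate. The test was checked on simulated data, drawn with a dispersion shared by all genes of a group. That check does not show that the calls made here hold. The standard error is the log2 fold change over the square root of F. CPM are counts over the tested-gene library size times its TMM factor, and a gene with 3 or fewer counts was called missing. Ratios for KO totals of 1 to 3 carry exact 95% intervals, which cover counting error only, and a KO total of 0 gives a bound at 3 counts over the group. Alternatives were RLE, library size alone, DESeq2 1.42.0, limma 3.58.1 voom, other filters, thinning to 3620002 counts and leaving libraries out. Leaving out KO libraries 1 and 5 together and the level per kilobase of span were added after seeing the data.

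Members and lists were chosen with earlier results of these data known. Named members were up to 3 per family of highest WT level per kilobase, up to 4 per family called lower, those present in every KO library, and a set list of 19 well-known factors. Members described outside that rule, among them Hnrnpul1, Hnrnpul2, Prpf6, Prpf18, Prpf39, Sf3b6 and Hnrnpr, were chosen after their values were seen. A member of the set is counted in the totals, and its own values are not reported here or drawn.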

Additional observations from a re-analysis of the deposited data

Results flagged for a closer look

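A gap test (Dixon, critical value 0.71 for 5 libraries) was run on log2(CPM + 1) of the named members in each group, 60 groups in all. Its usual chance rate of about 1 in 20 does not hold for groups with many zeros. The test marked 13 values. Where 4 KO libraries were at 0 and 1 was not, the ratio was 1.0 whatever the size of that value. The marks of Prpf19, Prpf38a, Prpf4, Sf3a2, Sf3a3 and Sf3b5 in KO were fixed in this way and say nothing on how far the library stood off.

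In KO library 4, the library with Maf counts, 5 values were marked. Among them were Prpf4b at 8.64 (2786 counts), Hnrnpa1 at 8.12 (1944 counts), Srsf7 at 7.46 (1229 counts) and U2af2 at 5.05 (225 counts). These 4 genes had at most 20 counts in each of the other KO libraries. Without KO library 4 each passed as lower, beside 37.8% of all tested genes. The gap test picked them for standing high in KO library 4 alone, so these calls are no separate support. The other marked gene of that library was Prpf4, at 1.83 (18 counts).

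For 6 other genes that passed as lower, the mark fell on the KO library that held all of the few KO counts, or 2 of 3 for Sf3a1: Prpf19 at 1.40 in KO library 3 (12 counts), Prpf38a at 0.185 in KO library 3 (1 count), Sf3a1 at 1.75 in KO library 1 (2 counts), Sf3b5 at 1.12 in KO library 1 (1 count), Sf3a2 at 0.524 in KO library 5 (1 count) and Sf3a3 at 0.678 in KO library 2 (4 counts). In WT, Srsf7 was high in WT library 1 at 6.25 (2626 counts) and Sf3b4 low in WT library 4 at 1.15 (55 counts).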

How the results depend on the processing

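The count of members lower in KO, 8 in the edgeR test, was 13 with voom and 0 among the 36 members with a mean of at least 20 CPM, a filter that none of the 8 passed. With 1 library left out it lay between 5 and 14, and moved by over 1.5 times without WT library 3, 4 or 5 (5 each), KO library 3 (13) or KO library 4 (14). Under the other alternatives it was 6 to 11. Of all genes tested, the alternatives called 6.3 to 37.9% lower and 0.654 to 13.5% higher. The count of members higher in KO, 0 in the edgeR test, was 1 with DESeq2 (Hnrnpul2), 2 without KO libraries 1 and 5 (Hnrnpul1 and Hnrnpul2), and 0 to 2 with 1 library left out (2 without KO library 1 and 1 without KO library 2). The WT share of counts was 0.741% without globin, mitochondrial and ribosomal protein genes. Members present had KO and WT medians of 33 and 53 with a limit of at least 1 count, and of 23 and 52 with more than 10.

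Over all tested genes the median log2 change was 0.09 with RLE, −1.77 with library size alone and −3.58 with voom, against −0.47. It was 1.03 among genes averaging 20 CPM or more and −2.52 without KO libraries 1 and 5. DESeq2 gave 1.24 over all genes with any count, tested or not. Among members, directions were followed only for the named members reported here and for Hnrnpul1, Hnrnpul2 and Prpf6. Within these, directions turned only for members that did not pass, and other members may have turned as well. With library size alone they turned for Hnrnpa2b1 (−0.24), Hnrnpc (−0.26), Hnrnpk (−0.0052), Prpf4b (−0.32), Prpf8 (−0.64), Sf3b4 (−0.22), Srsf5 (−0.43), Srsf7 (−0.96) and U2af1 (−0.87). With voom they turned for Hnrnpc (−0.45), Hnrnpk (−1.27), Prpf4b (−5.14), Sf3b4 (−2.31), Srsf7 (−4.81), U2af1 (−2.37) and Hnrnpul2 (−0.75). RLE gave 0.069 for Hnrnpll and 0.26 for Sf3b2, and DESeq2 0.21 for Sf3b2. Without KO libraries 1 and 5 the values were 0.39 for Hnrnpa1 and 0.53 for Sf3b2. With no filter Srsf7 was at −0.12 and U2af1 at −0.065, and thinned Srsf7 at −0.059. With 1 library left out, the ranges that crossed 0 were −5.56 to 0.020 for Hnrnpa1, −0.45 to 1.46 for Hnrnpk, −7.98 to 1.21 for Prpf4b, −1.28 to 0.17 for Sf3b2, −0.000057 to 1.14 for Sf3b4, −6.94 to 0.82 for Srsf7 and −1.55 to 0.83 for U2af1. DESeq2 gave no adjusted p for Hnrnpul1, Prpf4b or Srsf7, and its fold changes for them were not compared here. The cause of the turns was not tested.

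No paired analysis was possible because the replicate numbers only follow the order of deposit. Depth limits the KO side: 3 counts correspond to 3.53 CPM in KO library 1, against at most 0.0901 CPM in WT libraries, so a member missing from a KO library is not shown to be absent from its cells.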
